A study of Mus musculus with 15 samples.

Results

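RNA from T cells was looked for in sorted gut macrophages through 9 genes of the T cell receptor complex and the T lineage: Cd3d, Cd3e, Cd3g, Cd247, Lck, Cd2, Cd28, Thy1 and Cd5. They were chosen by symbol as a list of known T cell genes, with earlier results of these data known, and all 9 were found among the 19456 genes of the deposited count table. All 9 passed the filter on low counts that left 15802 genes. The question was whether T cell RNA goes with sorting on CD4, since CD4 is a surface protein of helper T cells as well as of these macrophages.

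RNA was sequenced from 15 libraries of adult male wild-type C57BL/6 mice with no treatment. The 4 populations were Ly6Chi peripheral blood monocytes (3 libraries) and 3 macrophage subsets of the small intestine (4 libraries each), named by their surface markers as Tim-4-CD4-, as Tim-4-CD4+ or as Tim-4+CD4+. Each library came from cells pooled from 3 mice, except monocyte replicate 2, which came from 4, and the populations were separated by flow cytometry with a lineage gate that removed cells with TCRβ, B220, Ly6G or Siglec F on their surface. The libraries held 39388763 to 151510641 counts on genes (median 63249039). A count of 0 in a library allows up to 3 counts, or 0.0203 to 0.0776 CPM (counts-per-million of the TMM-scaled library total), and this limit covers counting error only.

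The T cell receptor is a pair of clonal chains, alpha-beta or gamma-delta, that binds antigen and has no signaling part of its own. It reaches the surface and signals only together with the CD3 chains (Cd3d, Cd3e, Cd3g) and the zeta chain (Cd247), whose tails are phosphorylated by the kinase Lck, itself carried by the CD4 and CD8 coreceptors. In the gut wall, alpha-beta T cells fill the lamina propria, and many of the lymphocytes within the epithelium carry gamma-delta receptors.

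By their sorting markers, the libraries matched their labels. The mean of Cd4 over Tim-4-CD4+ libraries was 531 ± 51 CPM (SD, n = 4), and over Tim-4+CD4+ libraries it was 816 ± 80.9 CPM (n = 4). Without CD4 on the surface, Cd4 averaged 22.9 ± 11.2 CPM (n = 4) in macrophages, and monocytes held 0.207 ± 0.0522 CPM (n = 3). Timd4, which encodes Tim-4, lay between 336 and 390 CPM in Tim-4+CD4+ libraries and at 4.47 CPM or less in all others. Ly6c2, which encodes Ly6C, lay between 820 and 1540 CPM in monocytes and at 3.46 CPM or less in macrophages. Tim-4-CD4- replicate 3 stood apart from the other 3 libraries of its subset in some genes of the dendritic cell and epithelial lists, not in each list as a whole. It held Flt3 at 17.9 CPM against 4.41 to 7.57, Zbtb46 at 5.30 against 0.932 to 1.48, Cdh1 at 10.7 against 1.28 to 1.45 and Epcam at 10.8 against 1.42 to 2.51. The same library had the highest level of both sorting markers in its subset. Cd4 was at 39.2 CPM against 14.5 to 20.7, and Timd4 was at 2.93 against 0.151 to 0.802.

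Genes of the CD3 chains lie side by side in the mouse genome (GRCm38; positions from GENCODE M21). Cd3g (ENSMUSG00000002033.13) occupies chr9:44969572-44980431 on the minus strand and Cd3d (ENSMUSG00000032094.7) chr9:44981786-44987339 on the plus strand, so that both genes are read outward from starts 1355 bases apart. Cd3e (ENSMUSG00000032093.6) follows at chr9:44998740-45009627 on the minus strand, with its start 27841 bases from that of Cd3d. Thy1 (ENSMUSG00000032011.4) lies on the same chromosome at chr9:44043384-44048579, plus strand. The others are Cd247 (ENSMUSG00000005763.15) at chr1:165788681-165877277, plus strand, Cd28 (ENSMUSG00000026012.2) at chr1:60716800-60773359, plus strand, Cd2 (ENSMUSG00000027863.8) at chr3:101275899-101287939, minus strand, Lck (ENSMUSG00000000409.14) at chr4:129548344-129573641, minus strand, and Cd5 (ENSMUSG00000024669.7) at chr19:10717116-10739002, minus strand.

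Promoter windows are shown for the 3 CD3 genes, because they share a cluster and act in a single complex, and for Cd5, because it differed most between the subsets. Each runs 5′ to 3′ on the gene's own strand from 250 to 31 bases before the RefSeq start (GRCm38.p6), and covers chr9:45009642-45009861 (Cd3e), chr9:44981536-44981755 (Cd3d), chr9:44980462-44980681 (Cd3g) and chr19:10739005-10739224 (Cd5). Capitals mark matches, on either strand, to 5 motifs, which were the E-box CANNTG, the RUNX motif TGTGGT, the GATA motif AGATAA, the ETS motif AGGAAG and the TCF motif CTTTGA.
Cd3e: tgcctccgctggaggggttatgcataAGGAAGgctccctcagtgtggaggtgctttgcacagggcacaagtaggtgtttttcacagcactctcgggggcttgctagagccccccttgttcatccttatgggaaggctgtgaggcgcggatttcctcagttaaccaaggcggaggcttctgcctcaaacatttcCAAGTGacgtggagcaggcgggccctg
Cd3d: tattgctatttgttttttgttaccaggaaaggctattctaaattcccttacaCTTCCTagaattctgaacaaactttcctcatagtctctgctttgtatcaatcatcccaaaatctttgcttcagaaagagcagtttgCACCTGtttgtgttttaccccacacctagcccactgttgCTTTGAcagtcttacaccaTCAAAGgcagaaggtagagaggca
Cd3g: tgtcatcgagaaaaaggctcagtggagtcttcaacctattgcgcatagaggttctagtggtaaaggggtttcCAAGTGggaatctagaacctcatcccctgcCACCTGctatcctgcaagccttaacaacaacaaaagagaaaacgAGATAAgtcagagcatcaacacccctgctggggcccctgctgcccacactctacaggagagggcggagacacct
Cd5: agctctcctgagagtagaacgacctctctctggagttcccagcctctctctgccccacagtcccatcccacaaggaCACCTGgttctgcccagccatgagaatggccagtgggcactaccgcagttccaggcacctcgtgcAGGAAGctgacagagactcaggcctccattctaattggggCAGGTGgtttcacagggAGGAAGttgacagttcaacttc

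RefSeq windows were at hand for 6 of the 9 genes (Cd3d, Cd3e, Cd3g, Cd247, Cd5 and Lck, which has 2), and Cd2, Cd28 and Thy1 had no entry. An E-box was found in 6 of the 7 windows and in 62.1% of 32851 mouse promoter windows of the same length. The ETS motif was in 6 of the 7, all but that of Cd3g, and in 26.1% of all windows. The RUNX motif was in 1 (Lck; 12.7% of all windows), the GATA motif in 1 (Cd3g; 9.04%) and the TCF motif in 1 (Cd3d, at 2 places; 12.6%). In the windows shown no match overlapped another, and these matches describe letters, not binding.

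All 9 genes were at trace levels in macrophages. Their summed level was 9.23 to 14.8 CPM in Tim-4-CD4+, 7.56 to 11.2 CPM in Tim-4+CD4+ and 3.49 to 7.72 CPM in Tim-4-CD4- libraries, and 1.39 to 3.28 CPM in monocytes, where Cd2 was the largest part. In bulk RNA, fewer cells of a type and less RNA per cell cannot be told apart. The highest of the 9 in any macrophage library was Lck at 3.31 CPM. Divided by transcript length (the union of exons), Lck and Thy1 had the highest levels in Tim-4-CD4+ macrophages, at 0.754 ± 0.261 and 0.734 ± 0.174 CPM per kb (n = 4), followed by Cd3e at 0.598 ± 0.134 CPM per kb, and the spreads of these 3 overlapped. Cd28 at 0.0866 ± 0.0397 and Cd247 at 0.0796 ± 0.0618 CPM per kb were lowest. On the same scale Cd4 was at 132 ± 12.7 CPM per kb.

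**Figure D1:**
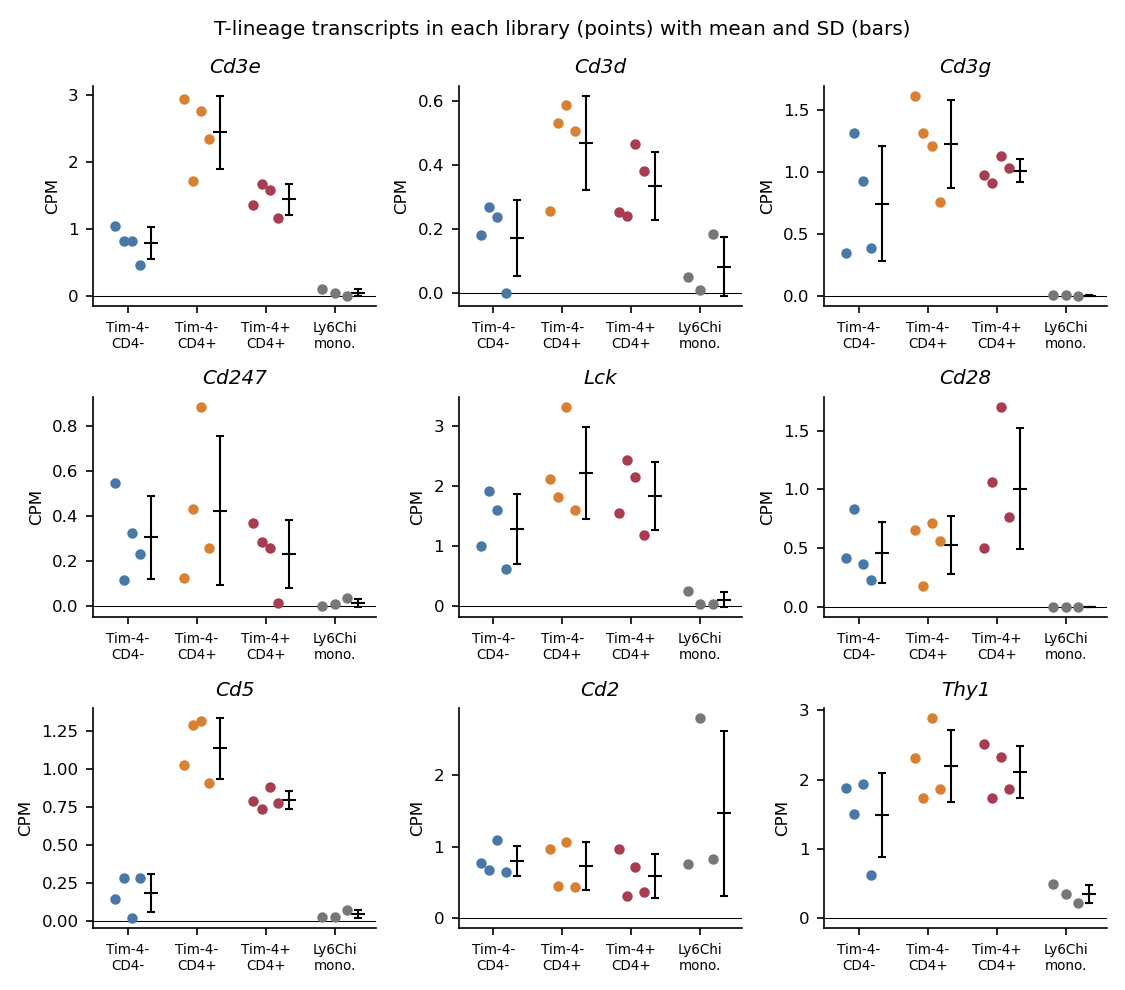
Level of each of the 9 T-lineage genes in every library, in CPM (vertical axes start near 0 and differ between panels), by population; points are libraries and bars are the mean and SD. Cd3e and Cd5 are higher in all 8 libraries of CD4+ macrophages than in any Tim-4-CD4- library, while the other panels overlap. The share of all genes that separate the libraries in this way was not counted.

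Cd3e, the CD3 epsilon chain, separated the 3 subsets without overlap. It was at 1.04, 0.821, 0.819 and 0.466 CPM in Tim-4-CD4- replicates 1 to 4, at 2.95, 1.72, 2.76 and 2.34 CPM in Tim-4-CD4+ and at 1.36, 1.67, 1.59 and 1.16 CPM in Tim-4+CD4+ macrophages. All 4 Tim-4-CD4+ libraries lay above all 4 Tim-4+CD4+ libraries, and these above all 4 Tim-4-CD4- libraries. Cd3e was higher in Tim-4-CD4+ than in Tim-4-CD4- macrophages, with a log2 fold change of 1.63 ± 0.39 (SE; edgeR adjusted p = 0.0124). It was also higher in the mean of both CD4+ subsets (1.25 ± 0.35, adjusted p = 0.0176), but not past the threshold in Tim-4+CD4+ macrophages alone (0.87 ± 0.39, adjusted p = 0.12). Without Tim-4-CD4- replicate 4, the shallowest library, the call for the mean of both subsets was lost (1.08, adjusted p = 0.0606), whereas that for Tim-4-CD4+ macrophages stood (1.45, adjusted p = 0.04). Without Tim-4-CD4- replicate 3 both stood (1.65, adjusted p = 0.0341, and 1.27, adjusted p = 0.0449). Exons of Cd3e overlap those of an antisense gene, Gm48719, and whether reads were counted by strand is not given in the sources used here.

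The other chains of the complex were lower or more scattered. Cd3d, the delta chain, had 0 to 16 counts in Tim-4-CD4- libraries (0.183, 0.268, 0.237 and 0 CPM), 14 to 75 in Tim-4-CD4+ (0.256, 0.531, 0.588 and 0.506 CPM) and 23 to 29 in Tim-4+CD4+ (0.253, 0.241, 0.466 and 0.381 CPM). Its CD4+ libraries overlapped Tim-4-CD4- libraries, and its log2 fold changes of 1.42 ± 0.73 and 0.91 ± 0.73 against Tim-4-CD4- did not pass (edgeR adjusted p = 0.266 and 0.407). Cd3g, the gamma chain, was at 0.347, 1.31, 0.927 and 0.388 CPM in Tim-4-CD4-, at 1.61, 1.31, 1.21 and 0.756 CPM in Tim-4-CD4+ and at 0.973, 0.912, 1.13 and 1.03 CPM in Tim-4+CD4+ libraries. The Tim-4-CD4- libraries of Cd3g split into a low and a high pair, the high pair within the range of the CD4+ libraries. Its log2 fold changes of 0.70 ± 0.40 and 0.43 ± 0.39 did not pass (adjusted p = 0.319 and 0.476). Cd247, the zeta chain, ran from 0.128 to 0.882 CPM among Tim-4-CD4+ and from 0.0166 CPM (1 count) to 0.37 CPM among Tim-4+CD4+ libraries, against 0.117 to 0.548 CPM in Tim-4-CD4- libraries. For Cd247 the log2 fold changes were 0.47 ± 0.76 and -0.37 ± 0.77, and exons of the gene overlap those of Pou2f1 on the other strand and of Gm16565 on its own.

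Summed over Cd3d, Cd3e and Cd3g, CD3 transcripts were at 4.82, 3.57, 4.56 and 3.6 CPM in Tim-4-CD4+, at 2.59, 2.82, 3.18 and 2.57 CPM in Tim-4+CD4+, at 1.57, 2.4, 1.98 and 0.854 CPM in Tim-4-CD4- libraries and at 0.0584 to 0.186 CPM in monocytes. No library of a population overlapped the next population in that order. Cd3e supplied 34.3% (95% exact binomial interval 26.5 to 42.7%) of the CD3 counts in Tim-4-CD4- replicate 2 and 66.3% (55.3 to 76.1%) in replicate 1, the lowest and highest shares of this subset, with intervals for counting error only. In Tim-4-CD4+ libraries Cd3e supplied 48.2 to 64.9% and in Tim-4+CD4+ libraries 45.2 to 59.1%.

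The order of the CD4+ subsets by level was opposite for Cd4 and for CD3, and neither difference passed a test of its genes. Cd4 ran from 484 to 598 CPM in Tim-4-CD4+ and from 752 to 924 CPM in Tim-4+CD4+ libraries with no overlap, although this difference did not pass the test (log2 fold change 0.62 ± 0.22, edgeR adjusted p = 0.166). The CD3 sum was higher in every Tim-4-CD4+ library than in any Tim-4+CD4+ library, while Cd3e, Cd3d and Cd3g had log2 fold changes of -0.76 ± 0.38, -0.50 ± 0.69 and -0.27 ± 0.39 there (adjusted p = 0.371, 0.777 and 0.787). For each CD3 count there were 100 to 150 Cd4 counts in Tim-4-CD4+, 266 to 324 in Tim-4+CD4+ and 7.13 to 24.2 in Tim-4-CD4- libraries, and 1.26 to 2.67 in monocytes. The ratio did not overlap between any of the 4 populations, but neither did Cd4 alone, the gene of a sorting marker. The separation of the ratio is therefore no separate result about CD3. What part of the Cd4 counts came from the same cells as the CD3 counts was not tested.

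**Figure D2:**
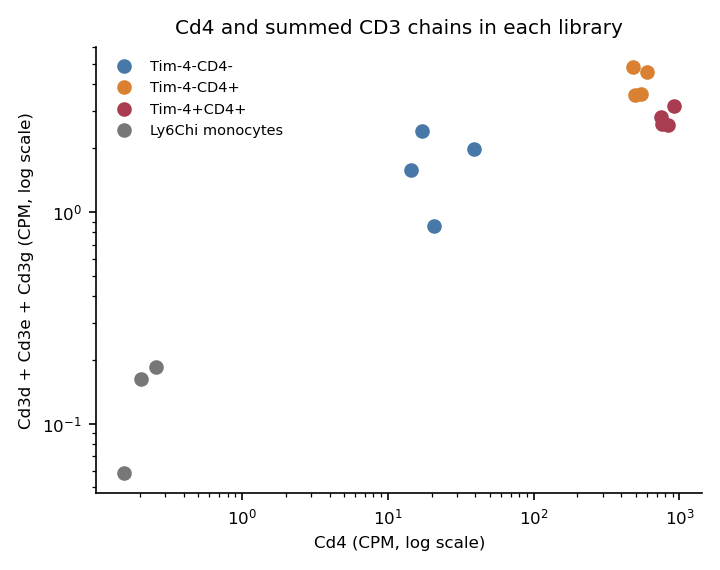
Cd4 (horizontal axis) against the sum of Cd3d, Cd3e and Cd3g (vertical axis) in each of the 15 libraries, both in CPM on log scales; colors mark populations. Tim-4+CD4+ libraries have the highest Cd4 and a lower CD3 sum (2.57 to 3.18 CPM) than Tim-4-CD4+ libraries (3.57 to 4.82 CPM).

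Among signaling genes, Lck, the kinase that phosphorylates the CD3 and zeta tails, was at 1.00, 1.91, 1.60 and 0.621 CPM in Tim-4-CD4-, at 2.11, 1.82, 3.31 and 1.60 CPM in Tim-4-CD4+ and at 1.55, 2.43, 2.14 and 1.19 CPM in Tim-4+CD4+ libraries. The 3 subsets overlapped, and only 4 of the 8 CD4+ libraries were above every Tim-4-CD4- library. Its log2 fold changes against Tim-4-CD4- were 0.78 ± 0.47 and 0.51 ± 0.47 (edgeR adjusted p = 0.364 and 0.488). Cd28, the receptor for costimulation by CD80 and CD86, ran from 0.233 to 0.838 CPM in Tim-4-CD4-, from 0.177 to 0.716 CPM in Tim-4-CD4+ and from 0.506 to 1.70 CPM in Tim-4+CD4+ libraries. It was the only gene of the 9 with its highest mean in Tim-4+CD4+ macrophages, at a log2 fold change of 1.10 ± 0.51 over Tim-4-CD4- that did not pass (adjusted p = 0.145).

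Cd5, a scavenger-receptor-type protein that dampens antigen receptor signaling and is also found on B-1 cells, showed the largest difference. It was at 0.146, 0.285, 0.0216 and 0.285 CPM (1 to 17 counts) in Tim-4-CD4- replicates 1 to 4, at 1.03, 1.29, 1.32 and 0.911 CPM (51 to 135 counts) in Tim-4-CD4+ and at 0.788, 0.740, 0.884 and 0.780 CPM (47 to 86 counts) in Tim-4+CD4+ macrophages. Both CD4+ subsets lay wholly above Tim-4-CD4- libraries, and all 4 Tim-4-CD4+ libraries lay above all 4 Tim-4+CD4+ libraries. The log2 fold change was 2.61 ± 0.48 in Tim-4-CD4+ (edgeR adjusted p = 0.0019), 2.10 ± 0.48 in Tim-4+CD4+ (adjusted p = 0.004) and 2.36 ± 0.45 in the mean of both (adjusted p = 0.00108), each against Tim-4-CD4-. Without Tim-4-CD4- replicate 3, which had a single Cd5 count, these were 2.25, 1.75 and 2.00, and all 3 still passed (adjusted p = 0.00196, 0.00422 and 0.00113).

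The remaining surface markers did not differ past the threshold. Thy1, a glycoprotein of T cells that innate lymphoid cells, neurons and fibroblasts also carry, was at 1.88, 1.51, 1.94 and 0.621 CPM in Tim-4-CD4-, at 2.31, 1.74, 2.89 and 1.86 CPM in Tim-4-CD4+ and at 2.52, 1.73, 2.33 and 1.87 CPM in Tim-4+CD4+ libraries. Its subsets overlapped, at log2 fold changes of 0.56 ± 0.32 and 0.50 ± 0.32 (edgeR adjusted p = 0.332 and 0.293). Cd2, an adhesion receptor of T cells and NK cells, was at 0.647 to 1.10 CPM in Tim-4-CD4-, at 0.439 to 1.07 CPM in Tim-4-CD4+ and at 0.318 to 0.973 CPM in Tim-4+CD4+ libraries. It was the only gene of the 9 with a lower mean in both CD4+ subsets than in Tim-4-CD4- macrophages, by less than its spread (-0.11 ± 0.48 and -0.42 ± 0.49, adjusted p = 0.934 and 0.593).

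Counted over the set, 2 of the 9 genes (Cd3e and Cd5) were higher in Tim-4-CD4+ than in Tim-4-CD4- macrophages and none was lower, where 4.52% of all genes tested were higher and 5.53% lower. In Tim-4+CD4+ against Tim-4-CD4- macrophages, 1 of 9 (Cd5) was higher and none lower, where the shares of all genes were 11.3% and 11.9%. DESeq2 called 2 there, Cd3e with Cd5, and 3 of the 9 had an unadjusted p under 0.05. For the mean of both CD4+ subsets, 2 of 9 were higher and none lower, against 9.8% and 11.2% of all genes. The median log2 fold change of the 9 was 0.70, 0.51 and 0.64 in these comparisons, which share their Tim-4-CD4- libraries, and the medians of all genes were -0.00291, -0.00475 and -0.00597. Between the CD4+ subsets edgeR and DESeq2 called 0 of the 9 and none had an unadjusted p under 0.05, where 2.07% of all genes were higher and 1.34% lower in Tim-4+CD4+ macrophages. There the median was -0.30, and 8 of the 9 log2 fold changes were below 0, by sizes from 0.06 (Thy1) to 0.85 (Cd247), with Cd28 at 0.90 ± 0.50 the exception.

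**Figure D3:**
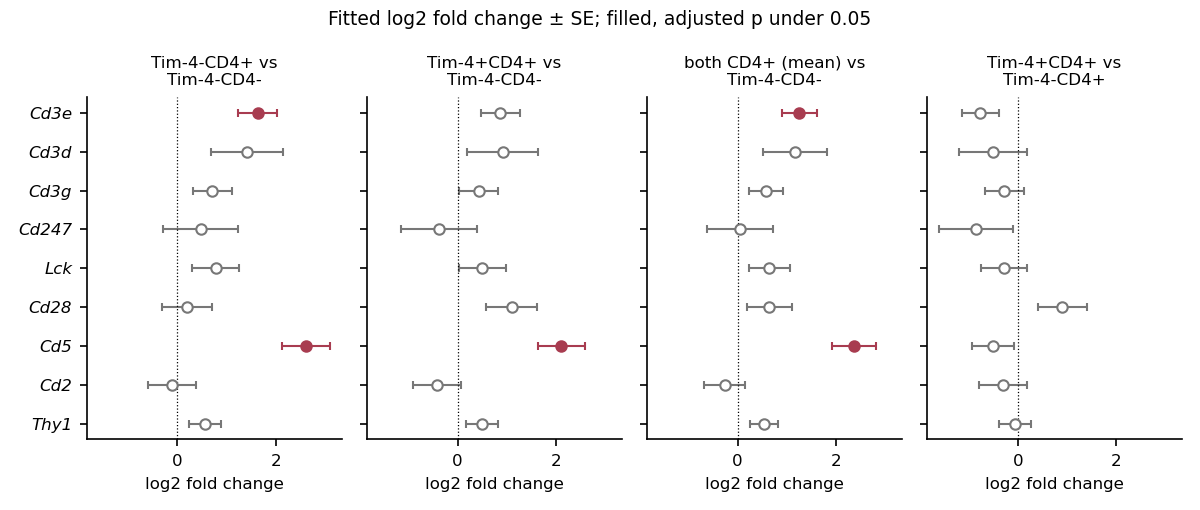
Log2 fold change of each of the 9 genes in 4 comparisons of macrophage subsets (horizontal axes), with the standard error as bars; filled points passed an adjusted p of 0.05. Cd5 passed in all 3 comparisons with Tim-4-CD4- macrophages and Cd3e in 2, and none passed between the CD4+ subsets.

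Blood monocytes, which came from another tissue, served as the background for the gut libraries. In Tim-4-CD4- macrophages 7 of the 9 genes were higher than in monocytes and none lower, where 37.3% of all genes were higher and 28.1% lower. Those not called were Cd3d (log2 fold change 1.25 ± 0.86, edgeR adjusted p = 0.212, and 2.46 with adjusted p = 0.0352 without monocyte replicate 3) and Cd2 (-0.89 ± 0.51, adjusted p = 0.137). In Tim-4-CD4+ macrophages 8 were higher, all but Cd2, against 39.1% higher and 30.7% lower among all genes. In Tim-4+CD4+ macrophages 8 were higher and Cd2 was lower (-1.30 ± 0.51, adjusted p = 0.0303), against 39.5% and 31.3%. The medians of the 9 were 3.45, 4.78 and 4.19, beside 0.08, 0.11 and 0.10 over all genes.

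Cd3e had 15, 4 and 0 counts in the monocyte libraries and was higher in all 12 macrophage libraries. Its log2 fold change was 3.75 ± 0.52 in Tim-4-CD4- (edgeR adjusted p = 9.21e-06), 5.38 ± 0.54 in Tim-4-CD4+ (adjusted p = 1.76e-07) and 4.62 ± 0.53 in Tim-4+CD4+ macrophages (adjusted p = 7.85e-07). Cd3g had 2 counts over the 3 monocyte libraries, which put the pooled ratio at 116 (95% exact counting interval 31.5 to 964) in Tim-4-CD4-, 161 (44.3 to 1340) in Tim-4-CD4+ and 147 (40.5 to 1220) in Tim-4+CD4+ macrophages. Cd247 had 3 monocyte counts, and its ratios were 30.4 (9.91 to 151), 40.6 (13.6 to 199) and 25.6 (8.47 to 126). Cd28 had none in any monocyte library. Against a floor of 3 counts over the group, Cd28 was at least 49.3-fold higher in Tim-4-CD4-, 56.7-fold in Tim-4-CD4+ and 95.1-fold in Tim-4+CD4+ macrophages.

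Cd2 went the other way in monocytes, at 0.765, 2.80 and 0.836 CPM in replicates 1 to 3, with a single high library that was pooled from 4 mice. Without that library the difference from Tim-4+CD4+ macrophages was -0.39 and the call was lost (edgeR adjusted p = 0.508), as it was without Tim-4+CD4+ replicate 2 (-1.06, adjusted p = 0.0919) or 4 (-1.13, adjusted p = 0.0789). Cd3d, at 0.0496, 0.00973 and 0.186 CPM in monocytes, passed against Tim-4+CD4+ macrophages by a small margin (2.16 ± 0.85, adjusted p = 0.0316), and the call was lost on leaving out monocyte replicate 1 (1.91, adjusted p = 0.109) or 2 (1.62, adjusted p = 0.115), or Tim-4+CD4+ replicate 3 (1.99, adjusted p = 0.059) or 4 (2.09, adjusted p = 0.053). Against Tim-4-CD4+ macrophages the call for Cd3d (2.66 ± 0.86, adjusted p = 0.0112) was lost without monocyte replicate 1 (2.42, adjusted p = 0.0515), and Cd2 was then called lower (-1.29, adjusted p = 0.0478). Thy1 and Lck were higher in every macrophage library than in any monocyte library, with Thy1 at 0.489, 0.350 and 0.223 CPM and Lck at 0.248, 0.0292 and 0.0372 CPM in monocytes.

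Constant regions of the receptor itself were read as a check that the 9 genes do not hold, since the lineage gate had removed cells with surface TCRβ. Trac, the alpha constant region, had 21, 36, 26 and 27 counts in the Tim-4-CD4- libraries. It had 81, 91, 164 and 202 counts in Tim-4-CD4+ replicates 1 to 4 and 186, 175, 65 and 50 counts in those of Tim-4+CD4+ macrophages. In CPM, all 8 CD4+ libraries lay above every Tim-4-CD4- library, and Trac was higher in both subsets (log2 fold change 1.69 ± 0.32, edgeR adjusted p = 0.00201, and 1.22 ± 0.31, adjusted p = 0.00917). Of the beta constant regions, Trbc2 was higher in Tim-4-CD4+ (1.37 ± 0.39, adjusted p = 0.0347) and not past the threshold in Tim-4+CD4+ macrophages (0.78 ± 0.39, adjusted p = 0.169), and Trbc1 was called in neither (0.47 ± 0.52 and -0.21 ± 0.52). Trbc1 and Trbc2 are near-identical copies, so their split of the counts is uncertain.

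None of the 4 gamma-delta constant regions (Trdc, Tcrg-C1, Tcrg-C2 and Tcrg-C4) passed in any comparison of macrophage subsets with edgeR. At an unadjusted p under 0.05, Tcrg-C1 alone was higher in Tim-4-CD4+ macrophages (1.40 ± 0.56, adjusted p = 0.142) and in the mean of both CD4+ subsets (1.09 ± 0.50, adjusted p = 0.146). Trdc was at 0.402, 0.637, 0.259 and 0.233 CPM in Tim-4-CD4-, at 0.128, 0.202, 0.473 and 0.257 CPM in Tim-4-CD4+ and at 0.594, 0.413, 0.643 and 0.564 CPM in Tim-4+CD4+ libraries. Summed levels were 1.24 to 1.99 CPM for the 3 alpha-beta regions and 0.984 to 1.71 CPM for the 4 gamma-delta regions in Tim-4-CD4- libraries. In Tim-4-CD4+ libraries they were 2.93 to 4.13 and 1.53 to 1.99 CPM, and in Tim-4+CD4+ libraries 2.07 to 3.35 and 1.41 to 1.81 CPM. Monocytes held at most 0.0921 and 0.0425 CPM of them.

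Of 30 other genes of T cell signaling and costimulation, 27 were tested. In Tim-4-CD4+ against Tim-4-CD4- macrophages 4 were higher (Cd6, Lat, Fyn and Cd40lg) and none lower, with a median log2 fold change of 0.42. In Tim-4+CD4+ macrophages 3 were higher (Cd6, Lat and Fyn) and 2 lower (Grap2 and Nfatc2), with a median of 0.11. For the mean of both, Cd6, Lat, Fyn and Cd40lg were higher and Grap2 lower, with a median of 0.22. Among all genes tested, 4.52% were higher and 5.53% lower in the first of these comparisons. The shares were 11.3% and 11.9% in the second and 9.8% and 11.2% in the third. The counts in Tim-4+CD4+ macrophages were no higher than these shares. Fyn, a Src-family kinase of many cell types, was the only one that differed between the CD4+ subsets (0.69 ± 0.12 higher in Tim-4+CD4+, edgeR adjusted p = 0.00219). The 3 most abundant members, Ptprc (CD45), Lcp2 and Csk, were also abundant in monocytes (means of 2050, 401 and 330 CPM) and passed in no comparison of macrophage subsets.

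Cd6, a relative of Cd5 that binds the adhesion protein CD166, was well above the 9 genes in level and followed the order of Cd5. It was at 8.30, 7.20, 8.69 and 10.2 CPM in Tim-4-CD4-, at 25.7, 32.7, 23.6 and 24.9 CPM in Tim-4-CD4+ and at 15.9, 21.2, 14.6 and 21.5 CPM in Tim-4+CD4+ libraries, and at most 0.0929 CPM in monocytes. The 3 subsets did not overlap, and the log2 fold changes against Tim-4-CD4- were 1.64 ± 0.19 (edgeR adjusted p = 2.29e-05) and 1.09 ± 0.18 (adjusted p = 0.000333). Lat, the adaptor phosphorylated after CD3, rose by 1.51 ± 0.37 (adjusted p = 0.0151) and 1.07 ± 0.37 (adjusted p = 0.0474). Cd40lg, the CD40 ligand of activated helper T cells, had no counts in 3 Tim-4-CD4- libraries and 7 in replicate 2, against 15 to 59 counts in Tim-4-CD4+ and 4 to 32 in Tim-4+CD4+ libraries. Its log2 fold change was 4.17 ± 1.02 in Tim-4-CD4+ (adjusted p = 0.017) and 2.87 ± 1.02 in Tim-4+CD4+ macrophages (adjusted p = 0.0558).

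Among 13 T cell transcription factors, all tested, Foxp3 was higher and Satb1 lower in Tim-4-CD4+ against Tim-4-CD4- macrophages (median log2 fold change 0.13), and Satb1 was also lower in Tim-4+CD4+ macrophages (median 0.20). The shares of all genes were 4.52% higher and 5.53% lower in the first comparison, and 11.3% and 11.9% in the second. Foxp3, the factor that defines regulatory T cells, had 7, 1, 0 and 0 counts in Tim-4-CD4- replicates 1 to 4, 18 to 39 in Tim-4-CD4+ and 6 to 24 in Tim-4+CD4+ libraries. It rose by 3.36 ± 0.93 (edgeR adjusted p = 0.0327) in Tim-4-CD4+ macrophages and was at 2.29 ± 0.93 (adjusted p = 0.0928) in Tim-4+CD4+ macrophages. Satb1, a chromatin organizer of thymocytes, ran the other way, at 9.45 ± 1.25 CPM in Tim-4-CD4-, 4.32 ± 0.531 CPM in Tim-4-CD4+ and 1.25 ± 0.396 CPM in Tim-4+CD4+ macrophages (n = 4 each). Bcl11b, which maintains T cell identity, was at 1.20 ± 0.42 and 0.65 ± 0.42 (adjusted p = 0.0863 and 0.3). Runx3, Zbtb7b and Ets1, the most abundant of the list, did not pass in any comparison of subsets.

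Some of these calls rested on single libraries when each of the 15 was left out in turn, an alternative chosen after the data were seen. The calls of Trac, Cd6, Fyn, Satb1 and Grap2 stood each time. In Tim-4-CD4+ against Tim-4-CD4- macrophages, Trbc2 was lost in 6 of 15 fits (edgeR adjusted p = 0.0658 to 0.103; without Tim-4-CD4- replicate 1, 2 or 4 or Tim-4-CD4+ replicate 1, 2 or 3), and Foxp3 in 5 (adjusted p = 0.0579 to 0.0864; without Tim-4-CD4- replicate 2, 3 or 4 or Tim-4-CD4+ replicate 2 or 3). There Cd40lg was lost in 1 (adjusted p = 0.0508, without Tim-4-CD4- replicate 3). In Tim-4+CD4+ against Tim-4-CD4- macrophages, Lat was lost in 10 of 15 fits (adjusted p = 0.0516 to 0.121), among them those without Tim-4-CD4- replicate 1, 3 or 4 or Tim-4+CD4+ replicate 1, 2 or 3, and Nfatc2 in 2 (adjusted p = 0.062 and 0.0657, without Tim-4-CD4- replicate 2 or 3).

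**Figure D4:**
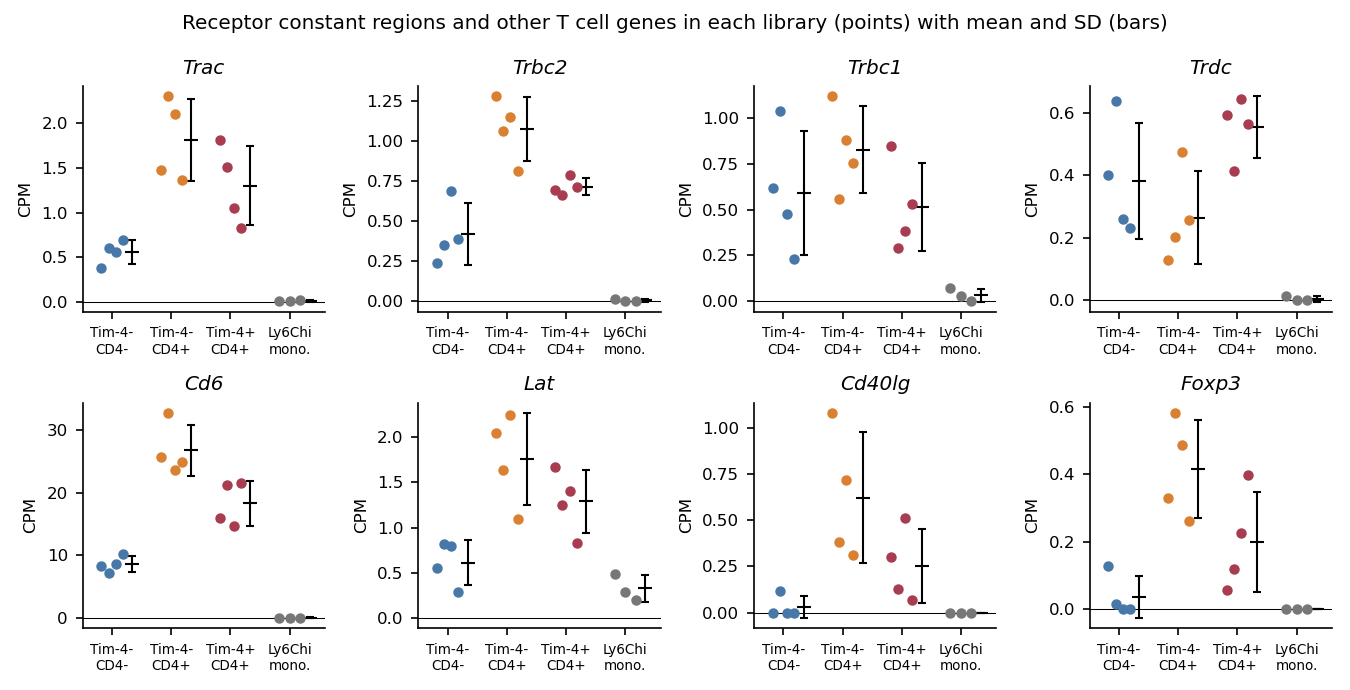
Level of 8 further T cell genes in every library, in CPM (axes differ between panels), by population; points are libraries and bars are the mean and SD. Trac and Cd6 are higher in all 8 CD4+ libraries than in any Tim-4-CD4- library, and Trdc overlaps between the subsets. How many of all genes separate the libraries like Trac and Cd6 was not counted.

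Markers of other cell types moved in both directions between the subsets. Of all genes tested, 4.52% were higher and 5.53% lower in Tim-4-CD4+ against Tim-4-CD4- macrophages. The shares were 11.3% and 11.9% in Tim-4+CD4+ against Tim-4-CD4- macrophages. They also apply to the cell type lists that follow. Of 11 genes of NK and innate lymphoid cells tested, Gzmb was higher in Tim-4-CD4+ macrophages (log2 fold change 1.25 ± 0.37, edgeR adjusted p = 0.0428, lost in 10 of the 15 fits without 1 library), and 5 were lower in Tim-4+CD4+ macrophages (Id2, Il1rl1, Il7r, Klrb1c and Klrk1). The list summed to 118 to 129 CPM in Tim-4-CD4-, 92.8 to 104 CPM in Tim-4-CD4+ and 57.8 to 76.8 CPM in Tim-4+CD4+ libraries. Most of this was Id2, with means of 73.7, 62.7 and 50.6 CPM in that order, and of 40.8 CPM in monocytes. Of 8 B cell genes, Cd22 was higher in both CD4+ subsets and no other was called. Cd22 was at 124 ± 4.29 CPM in Tim-4-CD4-, 252 ± 21 CPM in Tim-4-CD4+ and 288 ± 19.9 CPM in Tim-4+CD4+ macrophages (n = 4 each), and Cd79a, the B cell receptor's signaling chain, was at 4.02 ± 1.01, 3.31 ± 0.422 and 4.21 ± 1.24 CPM in the same order. Of 6 plasma cell genes, only Tnfrsf17 was called, higher in Tim-4+CD4+ macrophages, and Jchain was at 297 ± 64.3, 292 ± 61.2 and 280 ± 68.3 CPM. Jchain was thus well above any of the 9 T-lineage genes in all 3 subsets.

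Dendritic cell genes Flt3 and Itgae were lower in both CD4+ subsets, Ccr7 was lower and Siglech higher in Tim-4+CD4+ macrophages, and the 7 genes summed to 44.5 to 92.2, 32.7 to 42.3 and 36.5 to 56.2 CPM in the same order. Of 6 epithelial genes, Fabp2 and Vil1 were higher and Cdh1 lower in both CD4+ subsets, and the list summed to 12.2 to 29.9, 17.2 to 21.6 and 16.8 to 26.1 CPM. Without Tim-4-CD4- replicate 3, the library that stood apart, Cdh1 was no longer called in either subset (-1.28 and -0.97, edgeR adjusted p = 0.234 and 0.268). Without it Itgae was lost in Tim-4-CD4+ macrophages (-0.65, adjusted p = 0.339) and Ccr7 in Tim-4+CD4+ macrophages (-1.36, adjusted p = 0.064), Vil1 and Mertk were lost in Tim-4-CD4+ macrophages (adjusted p = 0.0713 and 0.0571), and Flt3 stood in both. Over all 15 fits without 1 library, Cdh1 was lost in 4 in each subset. In Tim-4-CD4+ macrophages Itgae was lost in 8 of them, Vil1 in 6 and Mertk in 3. Of 6 fibroblast genes, 4 (Col1a1, Col1a2, Col3a1 and Dcn) were higher in Tim-4+CD4+ against Tim-4-CD4- macrophages and none in Tim-4-CD4+. The call of Dcn (edgeR adjusted p = 0.0475) was lost in 8 of the 15 fits without 1 library. Endothelial Pecam1 was higher in both CD4+ subsets and the other 4 endothelial genes were not called, and of enteric neuron and glia genes only Elavl4 passed, in Tim-4+CD4+ macrophages. Mast cell genes summed to at most 0.603 CPM, with Cpa3 at 0 in every library of the subsets without Tim-4. Of 8 macrophage genes, Csf1r and Mertk were higher in both CD4+ subsets (0.53 ± 0.07 and 0.62 ± 0.15 in Tim-4-CD4+), and the monocyte genes Ccr2 and Plac8 were lower. The part of any of these cells in the levels of the 9 genes was not tested.

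The genes whose pattern was most like the CD3 sum were found by Pearson correlation of log2 CPM over the 12 macrophage libraries, among 12707 genes, as a description. The 10 highest were Zbtb24 (r = 0.952), Lat (0.936), Gzmb (0.911), Il18r1 (0.908), Bcl11b (0.891), Mmp9 (0.889), Cep97 (0.887), Gm4262 (0.882), Dtx1 (0.87) and Cdh24 (0.858), and the median over all genes was -0.01. These libraries share their population, so part of each r is the difference between subsets. After each subset's mean was subtracted, r was 0.928 for Zbtb24, 0.814 for Lat and 0.517 for Mmp9. Libraries of different subsets may also have shared a sort, and this subtraction does not remove what a sort would share. The lowest CD3 sum of each subset was in libraries that also correlated with each other over genes (r = 0.128 to 0.161). These were Tim-4-CD4- replicate 4 (0.854 CPM), Tim-4-CD4+ replicate 2 (3.57 CPM) and Tim-4+CD4+ replicate 4 (2.57 CPM). The next library was close in both CD4+ subsets (3.6 and 2.59 CPM). The 12 libraries may thus not be independent within subsets either. Of the other T-lineage genes, Lck stood next in rank (r = 0.858, rank 11) and stayed close within subsets (0.847), as did Thy1 (0.791 and 0.783). Cd5 was at 0.709 over all 12 libraries and at -0.265 within subsets, and Cd6 at 0.723 and -0.60. Cd28 was at 0.407 and 0.679 and Cd2 at 0.025 and 0.347. Of the receptor constant regions, Trac was at 0.711 and -0.171, Trbc2 at 0.814 and 0.281 and Trbc1 at 0.591 and 0.652. The list of 10 was not stable. By Spearman correlation, 3 of the 10 genes stayed among the 10 highest. When the library with the lowest CD3 sum, Tim-4-CD4- replicate 4, was left out, 3 stayed as well. Leaving out Tim-4+CD4+ replicate 1 kept 5, leaving out Tim-4-CD4+ replicate 3 kept 6, and leaving out any other library kept 8 or 9.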

How the data were processed

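The authors' deposited table holds raw counts per gene with no normalization. Per the labels and the study's methods, bcl2fastq 2.17.1.14 and Trimmomatic 0.36 prepared the reads, STAR placed them on GRCm38.p4, and HTSeq 0.6.1p1 assigned those that mapped uniquely to GENCODE vM11 genes. The strand setting is not given in the sources used here. The 15 columns of size-factor-normalized signal in the same table were not used. Symbols came from GENCODE M21 (19421 of 19456 identifiers matched). Each gene's total is at least 16 counts.

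Counts were tested in R 4.3.3 with edgeR 4.0.16 (TMM scaling, filterByExpr by population, quasi-likelihood F test, a single fit of 15 libraries and 7 comparisons, Benjamini-Hochberg over 15802 genes, threshold 0.05), with no replicate block. CPM used TMM-scaled library sizes. The study's methods name DESeq2 for pairs of groups, and DESeq2 1.42.0 fitted to all 15 libraries was an alternative here. Log2 values for the correlation used a pseudocount of 0.1 CPM and genes of at least 0.5 CPM. Exact binomial intervals were at 95% (SciPy). Alternatives were DESeq2, other scaling, filters on low counts, libraries thinned to the smallest, a fit of only the populations compared, the replicate block and leaving out each library. The tests were also run on simulated libraries drawn independently with the fitted spread. Such data cannot show how the tests behave if libraries of different subsets shared a sort.

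Replicate pairs differed beyond sampling noise (chi-square per degree of freedom at least 22.1). Per the paper, the macrophage data came from 4 independent sorts and the monocyte data from 3, each of pooled mice. The 12 macrophage libraries thus outnumber the sorts, and libraries of different subsets may have shared one. No label says which libraries shared a sort or a pool. The p-values treat the libraries as independent, which shared sorts would break. They measure the spread between libraries, which may in part be technical. Named genes were the 9 members, Cd4, Timd4 and Ly6c2, list genes called between macrophage subsets or among the 3 most abundant of their list, and the 10 genes most like the CD3 sum. Zbtb46 and Tcrg-C1 were named outside this rule, after their values were seen. The members and lists were chosen with earlier results of these data known. The result of 1 gene in the list of transcription factors is not reported here.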

Additional observations from a re-analysis of the deposited data

How the results depend on the processing

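Of 1469 fold changes of the 9 genes under 24 alternatives, 1436 kept their direction and their side of the threshold, 13 lost it, 4 gained it and 16 changed sign, none of these with an adjusted p under 0.823. With genes of a mean of at least 1 CPM, only Cd3e, Lck and Thy1 were tested, and the number called was 1 in Tim-4-CD4+ against Tim-4-CD4-, 0 in Tim-4+CD4+ against Tim-4-CD4-, 1 for the mean of both CD4+ subsets and 3 in each comparison with monocytes, fewer because fewer genes were tested. DESeq2 called 2 in Tim-4+CD4+ against Tim-4-CD4-, adding Cd3e (0.89, adjusted p = 0.0168), and the cause was not tested. Leaving out 1 library at a time, the number called was 2 to 2, 1 to 2, 0 to 0 and 1 to 2 for Tim-4-CD4+ against Tim-4-CD4-, for Tim-4+CD4+ against Tim-4-CD4-, between the CD4+ subsets and for the mean of both, and 7 to 8, 8 to 8 and 7 to 9 against monocytes. Without monocyte replicate 3, Cd3e passed in Tim-4+CD4+ against Tim-4-CD4- (0.88, adjusted p = 0.0484).

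None of the differences that changed sign had passed the test. Leave-one-out log2 fold changes ran from -0.19 to 0.93 for Cd247, -0.36 to 0.085 for Cd2 and -0.014 to 0.65 for Cd28 in Tim-4-CD4+ against Tim-4-CD4-, and from -0.68 to 0.10 for Cd247 in Tim-4+CD4+ against Tim-4-CD4-. They ran from -0.44 to 0.003 for Lck and -0.16 to 0.11 for Thy1 between the CD4+ subsets (Thy1 0.048 with libraries thinned to 1 depth), from -0.28 to 0.51 for Cd247 in the mean of both, and from -1.18 to 0.018 for Cd2 in Tim-4-CD4- against monocytes.

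The replicate numbers did not pair the libraries: deviations of same-numbered macrophage libraries correlated at -0.123 to 0.134 by title (median -0.0476, 2 of 12 pairs over 0.1) and at -0.0888 to 0.161 by description (median 0.0184, 4 of 12). Some libraries with different numbers correlated more, and every pair over 0.1 lay within sets of 1 library per subset. Tim-4-CD4- replicate 2 went with replicate 3 of both CD4+ subsets (0.134 to 0.24). Tim-4-CD4- replicate 3 went with Tim-4-CD4+ replicate 1 and Tim-4+CD4+ replicate 2 (0.135 to 0.173). Tim-4-CD4- replicate 4 went with Tim-4-CD4+ replicate 2 and Tim-4+CD4+ replicate 4 (0.128 to 0.161). Tim-4-CD4- replicate 1 went with Tim-4-CD4+ replicate 4 (0.219) and less clearly with Tim-4+CD4+ replicate 1 (0.0582). The labels do not give these sets, no fit blocked on them, and their effect was not tested. With the replicate block the numbers called were 2, 1, 0, 2, 7, 8 and 8 in the 7 comparisons under both numberings, with Cd2 lost in Tim-4+CD4+ against monocytes (-1.23 and -1.26, adjusted p = 0.0716 and 0.0657), and Cd247 in the mean of both was -0.06 with the block by title. Low counts limit Cd3d, Cd247 and Cd5, which had 0 to 30 counts in Tim-4-CD4- libraries.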
